A study of Mus musculus with 27 samples.

Results

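Cyclic nucleotide phosphodiesterases are the enzymes that break down cAMP and cGMP. The 10 genes described here, Pde10a, Pde1a, Pde1b, Pde2a, Pde4a, Pde4b, Pde4d, Pde7b, Pde8b and Pde9a, were taken by name, as the rows of the frontal cortex and striatum count tables whose Ensembl identifiers map to these symbols, and are 10 of 52636 identifiers in the tables. RNA sequencing measured the transcriptomes of wild-type mice (+/+) and of mice homozygous for a deletion of an enhancer near Igf2 (Igf2enh-/-), and the questions here are how the levels of these genes differ between the regions and between the genotypes. All mice were adults of about 2.5 months on the 129S1 background. The Igf2enh-/- mice lack a fragment of 4.9 kb between H19 and Igf2 and carry a loxP site in its place, since the cassette used for targeting was cut out by Cre from an Hprt-CRE mother. Frontal cortex gave 6 wild-type and 6 Igf2enh-/- libraries, each with 3 females and 3 males. Striatum gave 7 wild-type libraries (3 females and 4 males) and 8 Igf2enh-/- libraries (4 of each sex).

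Cells make cAMP with adenylyl cyclases and cGMP with guanylyl cyclases, and phosphodiesterases end both signals by hydrolysis. The families differ in what they cleave and in what controls them: Pde1 enzymes are stimulated by calcium and calmodulin, the Pde2 enzyme by cGMP, Pde4, Pde7 and Pde8 enzymes cleave cAMP, Pde9 cleaves cGMP, and Pde10 and Pde1 cleave both. In striatum, medium spiny neurons, the projection cells of the region, read dopamine through receptors that raise or lower cAMP, and Pde10a is known as an enzyme of these cells.

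Promoter windows of the 10 genes were searched for the cAMP response element, the site through which cAMP signalling can act on transcription, because the members with the largest changes between regions are part of the cAMP pathway. The RefSeq table (GRCm38.p6) gave 28 windows of 250 bases before to 50 bases after a start site for 9 of the 10 genes, with no window for Pde9a. The full element, TGACGTCA, was in 0 of the 28 windows and in 1.79% of all 32851 windows of the table. Its core, TGACG on either strand, which is also part of each full element, was in 5 of the 28 windows (17.857%) and in 20.812% of all windows. The 5 windows belong to Pde1a, Pde2a, Pde4a, Pde4b and Pde8b, and none belongs to Pde10a, Pde1b, Pde4d or Pde7b. The windows did not cover the outer start of every gene. The first Pde10a window began at 8801495, where the gene begins at 8525187. The only Pde7b window ended at 20548578, where this minus-strand gene extends to 20725078. Start sites outside the windows were not searched. The stretches around the 5 matches are printed on the strand of the gene, with the core in capitals (CGTCA where the match is on the opposite strand).
Pde1a, chr2:80039053-80039079, minus strand: taacttcagccCGTCAttcctcagtaa
Pde2a, chr7:101450523-101450549, plus strand: gggcgcaggagCGTCAcggctgctgca
Pde4a, chr9:21184040-21184066, plus strand: gcacagctcgaCGTCAggctggggagg
Pde4b, chr4:102421510-102421536, plus strand: atttggctgcaCGTCAattttctcatc
Pde8b, chr13:95223001-95223023, minus strand: gaaagttggggTGACGcgcgctg
A match describes the letters only, and the members' share lies near that of all windows.

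Library totals ran from 23686945 to 33926904 counts. Levels are given as CPM, the counts of a gene scaled to the library total with trimmed mean of M-values (TMM) factors over all 27 libraries. The neuron markers followed the region labels. The summed level of 18 medium spiny neuron genes was between 516 and 628 CPM in the frontal cortex libraries and between 5037 and 13255 CPM in striatum, and that of 20 cortical projection neuron genes was between 4331 and 4843 CPM in frontal cortex and between 1413 and 2898 CPM in striatum. In wild-type mice 13 of the 13 medium spiny neuron genes tested were higher in striatum, and of the 15 cortical projection neuron genes 11 were lower and 3 higher. The sum of 12 oligodendrocyte genes also followed region, with 1070 to 2278 CPM in frontal cortex and 5213 to 11333 CPM in striatum, and was highest in library 20. The deleted fragment lies between genes and has no row of its own. Igf2, the gene beside it, had a log2 fold change of Igf2enh-/- over wild-type mice of 0.77 in frontal cortex (edgeR's adjusted p = 0.0285). In striatum it was 0.89 with a standard error of 0.326 (edgeR's adjusted p = 0.387, not called). The striatal fit includes library 15, described below, and no estimate for Igf2 without that library is given here. The study itself reports higher Igf2 in both regions of Igf2enh-/- mice by a Wilcoxon test, which was not rerun here. Library 20, from a wild-type male, stood apart from the other striatal libraries: it had the lowest medium spiny neuron sum (5037 CPM, where the other wild-type libraries had 7430 to 12880 and the Igf2enh-/- libraries 6826 to 13255 CPM) and the highest cortical projection neuron sum (2898 CPM, where they had 1413 to 2406 and 1669 to 2595 CPM). Library 15, from an Igf2enh-/- female, had 3413 CPM of 10 choroid plexus genes, where the other striatal libraries had between 30.0 and 161. Its sum of 10 meningeal fibroblast genes, a list that includes Igf2, was 318 CPM, where the other striatal libraries had 56.4 to 93.0. In frontal cortex the meningeal fibroblast sum ran from 167 to 317 CPM in Igf2enh-/- and from 104 to 235 CPM in wild-type libraries. The part of meningeal tissue in the Igf2 values was not tested. Results that rest on library 20 are given with and without it.

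Pde2a, the cGMP-stimulated phosphodiesterase, could not be compared. Its identifier, ENSMUSG00000030653, had 0 counts in 20 libraries and 1 count in the other 7, so it did not reach the minimum level of 1 CPM for testing. A count of 0 allows up to 3 counts, for counting error only. The symbols come from an older annotation (GENCODE vM1) than the counts (vM15), and whether reads of Pde2a were counted under another identifier was not tested. The other 9 genes each passed the filter in every comparison. Their exons shared 0 bases with exons of other genes in vM1.

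Per kb of exons, Pde1b and Pde10a were the most abundant of the 9 measured members in striatum, and Pde1a and Pde1b in frontal cortex. In striatum the level of Pde1b was 325 ± 77.4 CPM per kb of exons (SD, n = 15), that of Pde10a 141 ± 34.9 and that of Pde7b 39.5 ± 9.24. Pde1b made up 55.6% of the summed level of the 9 genes per kb of exons and Pde10a another 24.1%. The shares depend on the length used. With the longest transcript Pde1b had 329 and Pde10a 230 CPM per kb. Pde8b (25.5 ± 2.36), Pde4b (16.8 ± 1.52), Pde4a (13.3 ± 2.16), Pde1a (12.7 ± 5.31), Pde9a (7.77 ± 1.24) and Pde4d (3.06 ± 0.318 CPM per kb) followed. The level of Pde4a was above that of Pde1a in 10 of 15 libraries, and these neighbours in the order did not differ beyond their spread (exact two-sided Wilcoxon signed-rank test, adjusted p = 0.383 over 16 pairs in both regions). The other 7 striatal neighbours differed, with adjusted p between 0.000244 and 0.00841 in the same exact test. In both regions the neighbours were taken from the order in these same libraries. The test takes the exon lengths as given, so it does not show that the order holds under another length.

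In frontal cortex no measured member held a share like that of Pde1b in striatum. Pde1a led with 36.3 ± 4.27 CPM per kb (SD, n = 12), or 26.2% of the summed level, before Pde1b (31.5 ± 0.858) and Pde4a (22.1 ± 1.06). Pde8b had 16.3 ± 1.78 and Pde4b 11.8 ± 0.871 CPM per kb. The least abundant were Pde7b (6.53 ± 0.835), Pde10a (5.12 ± 0.905), Pde4d (4.34 ± 0.413) and Pde9a (4.23 ± 0.337 CPM per kb). Pde4d and Pde9a did not differ beyond their spread (exact Wilcoxon signed-rank test, adjusted p = 0.569), and Pde10a was above Pde4d in 9 of 12 libraries (adjusted p = 0.0485 in the same exact test). With the length of the longest transcript in place of all exons, the order in frontal cortex changed: Pde4a (36.4 CPM per kb) came before Pde1b (31.9), Pde4b (29.0) before Pde8b (22.7), and Pde4d (12.4) before Pde7b (11.4) and Pde10a (8.36). In striatum the same length put Pde4b (41.3) before Pde8b (35.4) and left the first 3 places as they were.

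**Figure D1:**
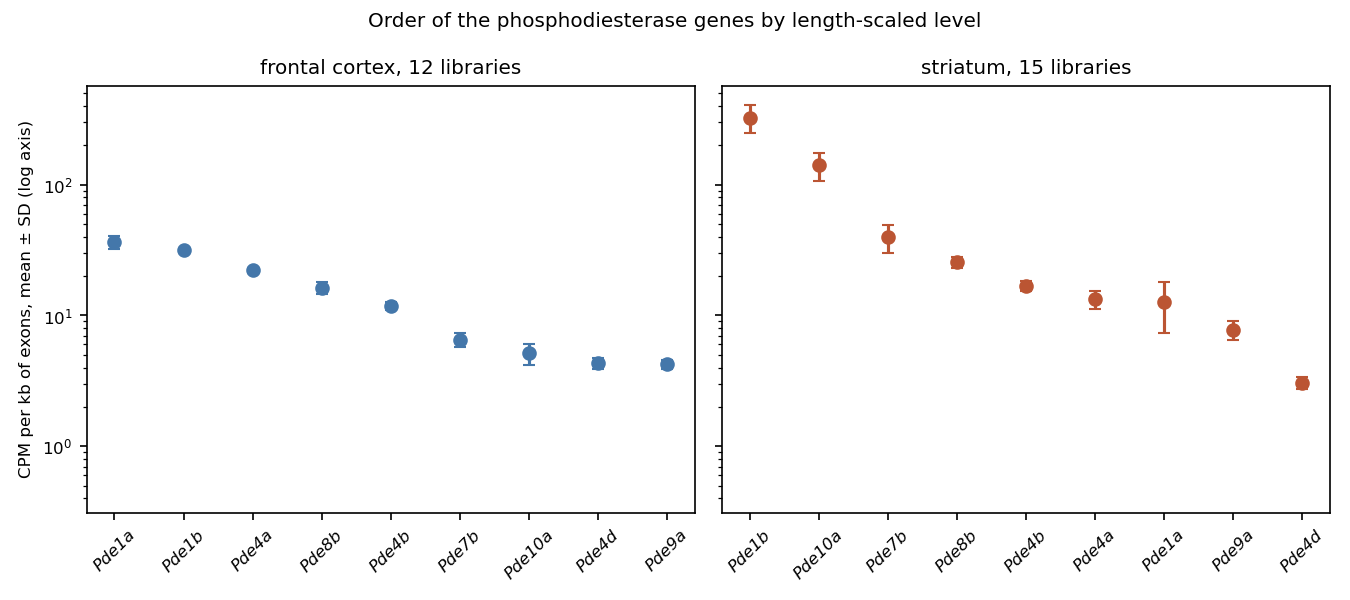
Mean level of 9 phosphodiesterase genes in CPM per kb of exons (log axis) in frontal cortex (12 libraries) and striatum (15 libraries), with bars of ± 1 SD over libraries and genes in falling order within each region. Pde1b (325) and Pde10a (141 CPM per kb) stand above the others in striatum, while in frontal cortex Pde10a has 5.12 CPM per kb.

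All 9 measured genes differed between striatum and frontal cortex, in both genotypes. Pde10a, Pde1b, Pde7b, Pde9a, Pde8b and Pde4b were higher in striatum, and Pde4d, Pde4a and Pde1a were lower. The test was edgeR's quasi-likelihood F-test with sex as a term, over all genes that reached 1 CPM in all libraries of the genotype, and a gene was called at an adjusted p (Benjamini-Hochberg) under 0.05. In wild-type mice 6 members were called higher, where 33.8% of the 13554 genes tested were, and 3 were called lower, where 31.6% were. In Igf2enh-/- mice the same counts of 6 and 3 stood beside 34.0% and 34.1% of 13595 genes. The median size of the log2 difference was 0.93 over the 9 members and 0.24 over all genes tested in wild-type mice, and 0.84 and 0.24 in Igf2enh-/- mice. The members were chosen with earlier results of these data known, so nothing is concluded from this contrast with all genes. The values of the regions did not overlap for 8 of 9 members in wild-type mice (37.8% of all genes tested) and for 9 of 9 in Igf2enh-/- mice (42.0%). Which cells the differences come from cannot be read from bulk tissue, where fewer cells of a type and less RNA per cell cannot be told apart. The labels do not tie libraries of the regions to the same mouse, and the tests treat all libraries as independent mice.

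Pde10a (chr17:8525187-8986648 in GRCm38.p6), which cleaves both cAMP and cGMP, had the largest change of the measured members. In wild-type frontal cortex its level ran from 49.2 to 79.7 CPM with a median of 65.0, and in wild-type striatum from 767 to 2257 CPM with a median of 1695. In Igf2enh-/- mice it ran from 51.1 to 82.1 CPM (median 60.0) in frontal cortex and from 1248 to 2357 CPM (median 1854) in striatum. Every striatal library lay above every frontal cortex library. Library 20 was the lowest striatal library and the next wild-type library had 1440 CPM. The mean levels of 65.6 ± 11.8 (SD, n = 6) and 1661 ± 484 CPM (SD, n = 7) gave a log2 fold change of 4.70 (standard error 0.232), a 26.0-fold difference, with an adjusted p of 2.95e-08 in edgeR's test. The Igf2enh-/- mice had a log2 fold change of 4.87 (0.179), or 29.3-fold.

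Pde1b (chr15:103503034-103530056), a calcium and calmodulin-stimulated enzyme, was 10.2-fold higher in striatum of wild-type mice and 10.4-fold in Igf2enh-/- mice. Its level in wild-type mice ran from 133 to 142 CPM in frontal cortex (median 136) and from 708 to 1828 CPM in striatum (median 1514), and in Igf2enh-/- mice from 129 to 137 CPM (median 133) and from 930 to 1768 CPM (median 1478). Among frontal cortex libraries it varied little, with an SD of 2.48% of the mean in wild-type mice, and among striatal libraries of the same genotype the SD was 29.4% of the mean. The log2 fold change was 3.35 (standard error 0.197) in wild-type and 3.38 (0.117) in Igf2enh-/- mice.

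Pde7b (chr10:20397052-20725078), which cleaves cAMP, was 5.64-fold higher in striatum of wild-type mice. It ran from 41.8 to 54.8 CPM in wild-type frontal cortex (median 48.5) and from 136 to 339 CPM in wild-type striatum (median 277). In Igf2enh-/- mice the ranges were 36.1 to 53.4 CPM (median 48.3) and 200 to 365 CPM (median 305), and the fold was 6.46. The log2 fold changes were 2.50 (standard error 0.183) and 2.69 (0.145). Here too library 20 was the lowest striatal library and still lay above every frontal cortex library.

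Smaller increases were found for Pde9a, Pde8b and Pde4b. Pde9a (chr17:31386105-31476309), the cGMP-specific enzyme and the one with the lowest counts (279 to 1059 per wild-type library), rose from 11.4 ± 0.690 CPM in wild-type frontal cortex (SD, n = 6) to 21.8 ± 4.59 CPM in wild-type striatum (SD, n = 7), a log2 fold change of 0.93 (standard error 0.119). The cAMP-specific enzyme Pde8b (chr13:95024105-95250401) had 101 ± 8.91 and 146 ± 10.0 CPM in the same groups, with a log2 fold change of 0.54 (0.0569). Pde4b (chr4:102087332-102607275), of the rolipram-sensitive Pde4 family, had 126 ± 6.81 and 176 ± 20.6 CPM and a log2 fold change of 0.48 (0.0754). The wild-type regions overlapped for Pde4b alone among the members, since library 20 had 138.7 CPM and the highest frontal cortex library 138.9 CPM. In Igf2enh-/- mice the log2 fold changes were 0.82 for Pde9a, 0.75 for Pde8b and 0.54 for Pde4b.

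The other Pde4 genes changed in the opposite direction to Pde4b. Pde4a (chr9:21165700-21213248) fell from 167 ± 7.00 CPM in wild-type frontal cortex (SD, n = 6) to 109 ± 19.9 CPM in wild-type striatum (SD, n = 7), a log2 fold change of -0.62 (standard error 0.104). In Igf2enh-/- mice its log2 fold change was -0.84 (0.0635). Pde4d (chr13:108654177-109955969) fell from 53.2 ± 6.11 to 38.3 ± 2.17 CPM in wild-type mice, with log2 fold changes of -0.47 (0.0663) in wild-type and -0.53 (0.0776) in Igf2enh-/- mice. The adjusted p-values of the members in edgeR's test ran from 2.95e-08 to 0.0022 in wild-type and from 1.38e-11 to 2.4e-05 in Igf2enh-/- mice.

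Pde1a (chr2:79834453-80196522), like Pde1b a calcium and calmodulin-stimulated enzyme, had the largest decrease. In wild-type frontal cortex it ran from 181 to 264 CPM (median 208), and in wild-type striatum from 21.4 CPM in library 22 to 130 CPM in library 26 (median 85.2). In Igf2enh-/- mice it ran from 206 to 247 CPM (median 221) in frontal cortex and from 43.5 to 117 CPM (median 72.4) in striatum. All striatal libraries lay below all frontal cortex libraries, but they differed widely among themselves, with an SD of 53.6% of the mean in wild-type and 32.4% in Igf2enh-/- striatum. The log2 fold change was -1.49 (standard error 0.348), a 2.80-fold decrease, with an adjusted p of 0.0022 in edgeR's test in wild-type mice, and -1.57 (0.162), or 2.96-fold, in Igf2enh-/- mice.

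**Figure D2:**
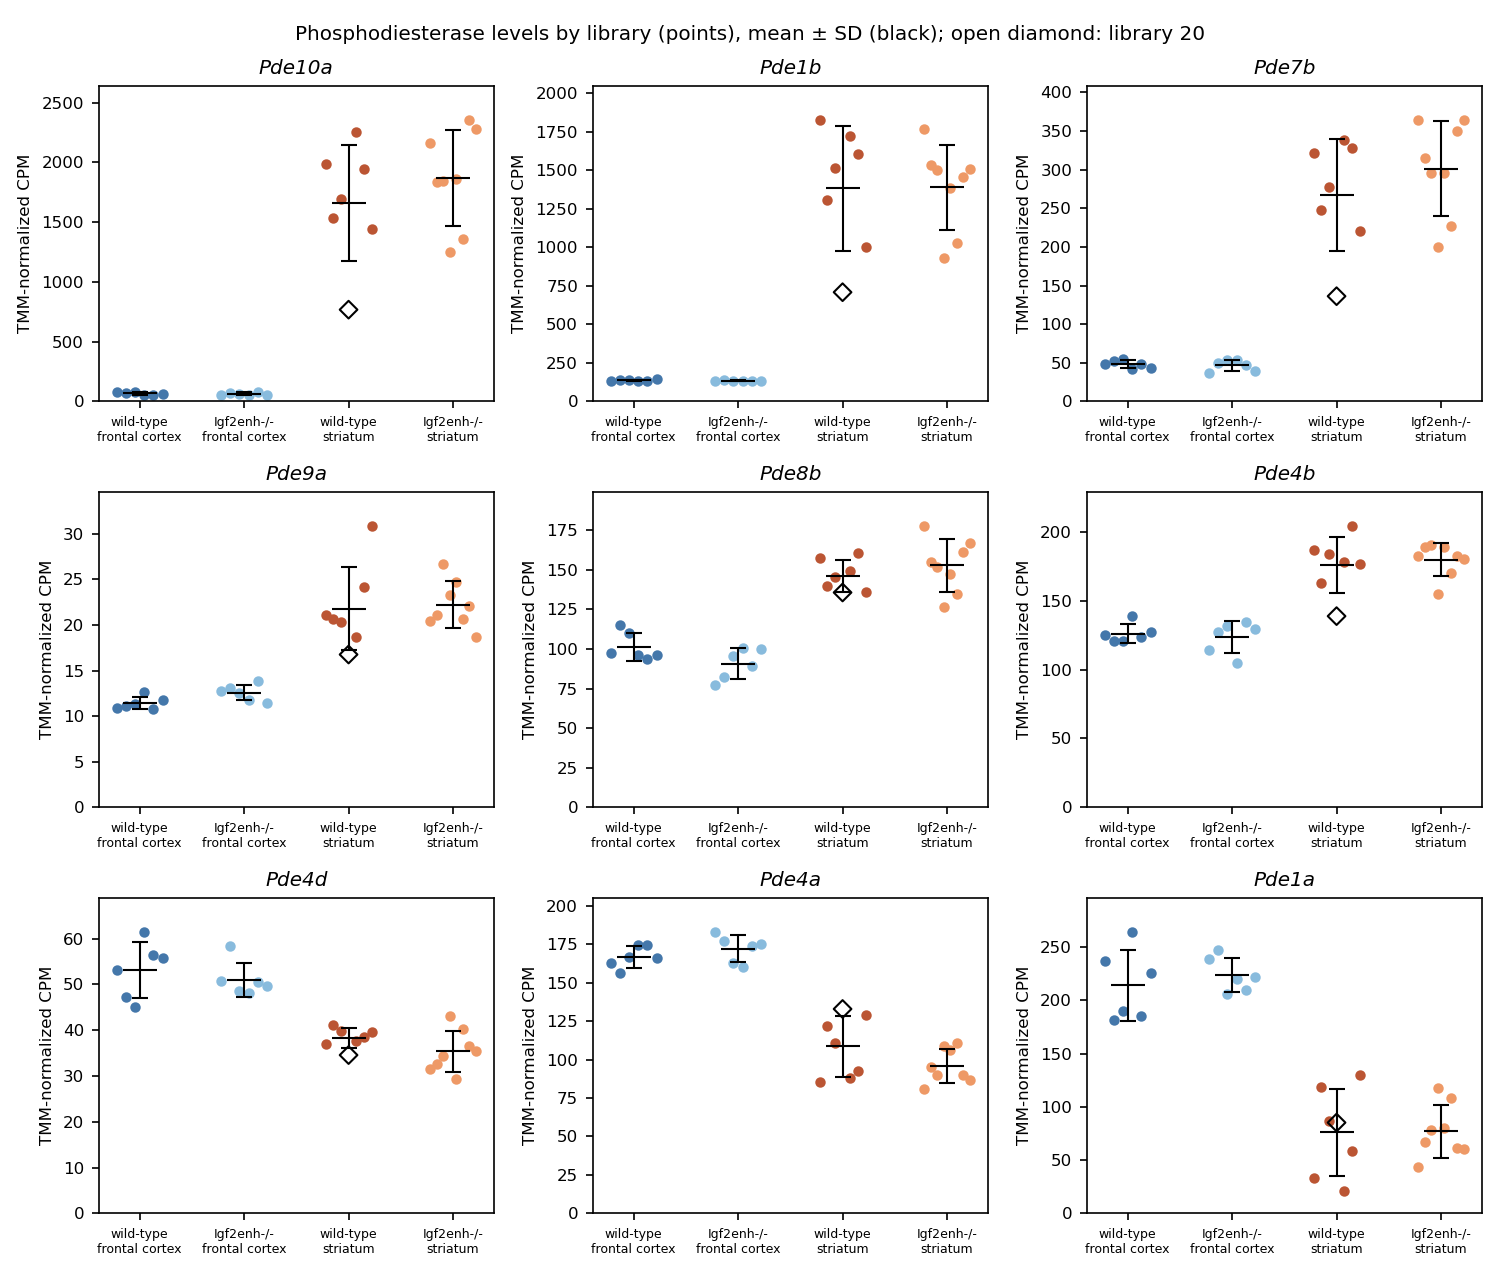
TMM-normalized CPM of 9 phosphodiesterase genes in each library (points) of wild-type and Igf2enh-/- frontal cortex and striatum, with the group mean and ± 1 SD in black and library 20 as an open diamond. For Pde10a, Pde1b and Pde7b library 20 is the lowest striatal library, and for Pde1a, Pde4a and Pde4d the striatal points lie below those of frontal cortex.

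Leaving out library 20 changed no region call. The share of all genes called in wild-type mice was then 69.4%, and all 9 members were again among them. The log2 fold change in wild-type mice without it was 4.79 for Pde10a (standard error 0.149), 3.45 for Pde1b (0.129), 2.59 for Pde7b (0.113), 0.98 for Pde9a, 0.54 for Pde8b and 0.52 for Pde4b. It was -0.45 for Pde4d, -0.68 for Pde4a and -1.53 for Pde1a (0.371). In library 20 the level of Pde10a was 42.4% of the mean of the other 6 wild-type striatal libraries, that of Pde1b 47.4% and that of Pde7b 47.1%. The medium spiny neuron sum was 47.1% of theirs. Pde4a was at 127% of the others and the highest of all 15 striatal libraries, and the cortical projection neuron sum was at 157%. Lists of other cells differed as well. The oligodendrocyte sum was at 163%, that of 10 astrocyte genes at 128% and that of 10 interneuron genes at 76.6%. Pde1a in library 20, at 85.2 CPM, lay within the range of the others.

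**Figure D3:**
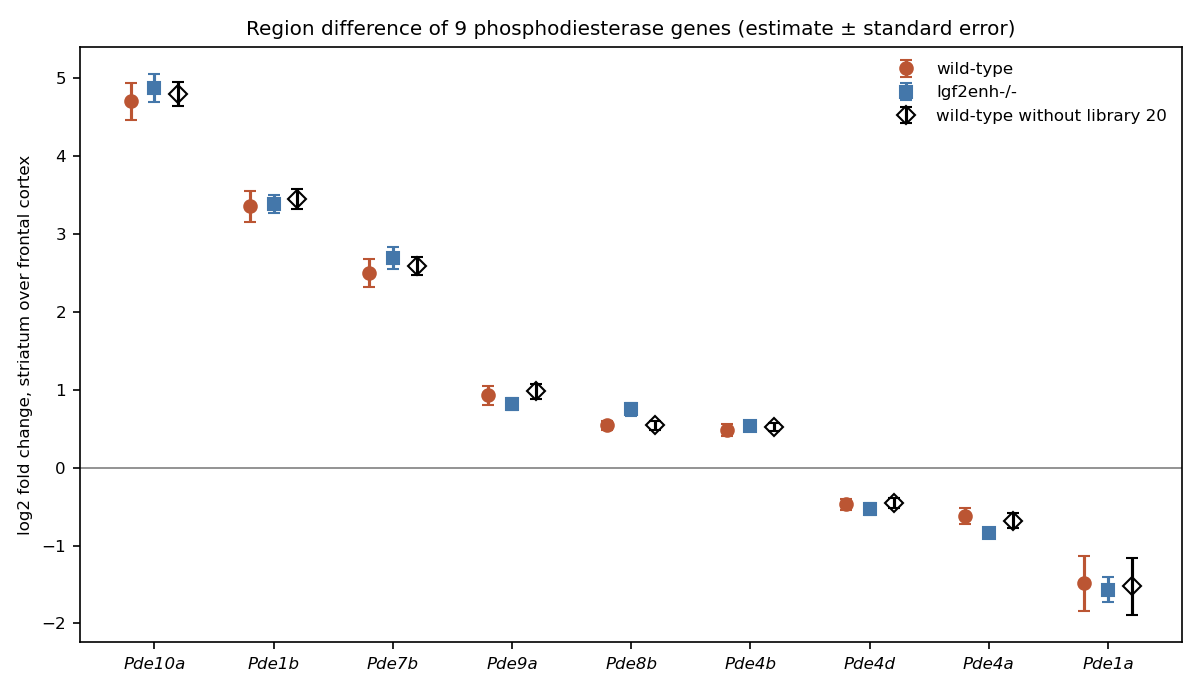
Log2 fold change of striatum over frontal cortex for 9 phosphodiesterase genes in wild-type mice, in Igf2enh-/- mice and in wild-type mice without library 20, with bars of ± 1 standard error. The values run from 4.70 for Pde10a to -1.49 for Pde1a in wild-type mice, and leaving out library 20 turns no direction.

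The striatal libraries differed among themselves in an order that several members shared. The 5 libraries lowest in the medium spiny neuron sum (20, 19, 26, 23 and 16) were also the 5 lowest for Pde10a, Pde1b, Pde7b, Pde8b and Pde4b, and 4 of the 5 highest in that sum were among the 5 highest for Pde10a, Pde1b, Pde7b and Pde8b. For Pde4b only 2 of the 5 highest were shared. Pde1a and Pde4a went with the other list: the 5 libraries lowest in the cortical projection neuron sum (22, 14, 24, 13 and 27) were the 5 lowest for Pde1a and held 4 of the 5 lowest for Pde4a. Pde9a and Pde4d followed neither list closely at both ends. Each shared 1 of its 5 lowest libraries with the medium spiny neuron sum. However, 4 of the 5 libraries highest for Pde4d were among the 5 lowest in that sum, as for Pde1a and Pde4a. Only 1 of the 5 lowest for Pde4d was among the 5 highest in that sum. For Pde9a these counts were 2 and 3. With the cortical projection neuron sum Pde9a shared 3 of the 5 lowest and 2 of the 5 highest, and Pde4d 1 and 3. Slc17a7, the vesicular glutamate transporter of cortical projection neurons, ran from 13.6 to 563 CPM in the 14 striatal libraries other than library 20, had 750 CPM in library 20, and was never below 1482 CPM in frontal cortex. Drd1, a dopamine receptor of medium spiny neurons, had 143 CPM in library 20, between 225 and 401 CPM in the other striatal libraries and at most 11.1 CPM in frontal cortex. The part of these marker levels in the region differences was not tested.

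As a share of the summed medium spiny neuron list, Pde1b was nearly level across striatal libraries. It was between 13.3% and 14.5% of that sum in the 14 libraries other than library 20 and 14.1% in library 20, although its CPM differed 1.96-fold between the lowest and highest of the 14. Pde7b was between 2.52% and 3.23% (2.70% in library 20), and Pde10a between 15.6% and 21.7% (15.2% in library 20). For Pde1a the share differed 10.5-fold between the lowest and highest of the 14 libraries. These shares were computed after the levels had been seen and are a description.

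**Figure D4:**
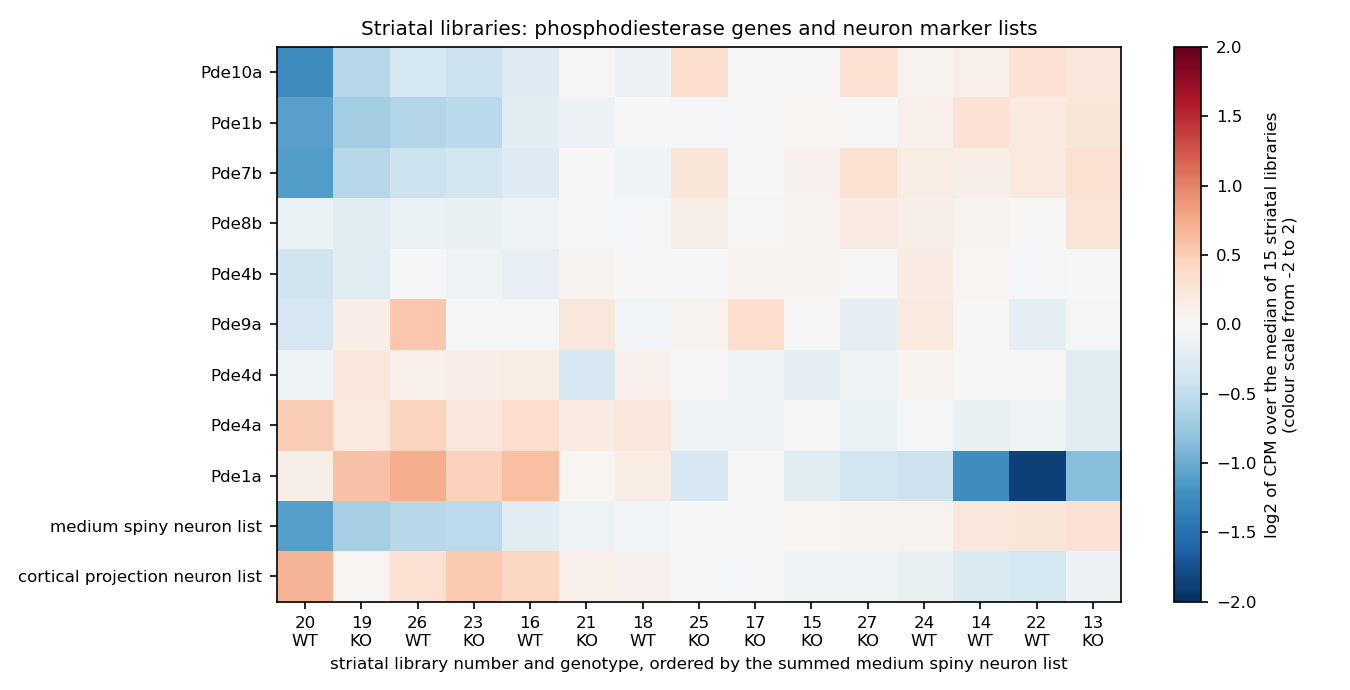
Colour gives the log2 ratio of CPM to the median of the 15 striatal libraries (scale from -2 to 2) for 9 phosphodiesterase genes and for the summed medium spiny and cortical projection neuron lists, with libraries (numbers, WT for wild-type and KO for Igf2enh-/-) in rising order of the medium spiny neuron sum. Libraries 20, 19, 26, 23 and 16 on the left are low for Pde10a, Pde1b and Pde7b, and library 22 has the lowest Pde1a (21.4 CPM).

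Over the 14 striatal libraries without library 20, the genes most like Pde10a among 13414 expressed genes included Epb4.1, Strn, Pde7b and Caln1, with Pearson correlations of log2(CPM + 0.5) between 0.97 and 0.98. The most like Pde1a were Ak5, BC068157, Lrfn2, Mapk11 and Doc2a (0.98). Pde10a and Pde1a ran against each other in these libraries (r = -0.78). Over the 12 frontal cortex libraries the most like Pde10a were Maml3, Ptger1, Sp2, Shpk and Phlpp1 (0.83 to 0.93) and the most like Pde1a were Snap91, Tox, Actr3, Pcdh10 and Grik3 (0.91 to 0.95), and the correlation of Pde10a with Pde7b was 0.51. These are descriptions over libraries that share tissue composition and depth, ranked over all genes, and carry no test.

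Between the genotypes none of the 9 genes passed the test in either region. In frontal cortex edgeR's quasi-likelihood test with sex as a term called 0 of 9 members, where it called 0.38% of 13936 genes, and 2 members had an unadjusted p under 0.05, as did 1877 of all genes tested. The log2 fold changes, Igf2enh-/- over wild-type, lay between -0.16 and 0.14, with standard errors from 0.0285 for Pde1b to 0.121 for Pde10a. Pde8b had 101 ± 8.91 CPM in wild-type and 90.8 ± 9.67 CPM in Igf2enh-/- frontal cortex (SD, n = 6 each), a log2 fold change of -0.16 (adjusted p = 0.347 in edgeR's test). Pde9a had 11.4 ± 0.690 and 12.6 ± 0.853 CPM, a log2 fold change of 0.14 (adjusted p = 0.338). The groups overlapped for all 9 members, where 1.29% of all genes tested had groups that did not overlap. The likelihood ratio test, DESeq2 and limma-voom also called 0 members.

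In striatum the same test called 0 of 9 members, where it called 0.036% of 13875 genes, and 0 members had an unadjusted p under 0.05, where 1395 of all genes tested did. The genotypes overlapped for all 9, where 0.231% of all genes tested did not overlap. The log2 fold changes lay between -0.17 for Pde4a and 0.16 for Pde7b. Pde10a had 1661 ± 484 CPM in wild-type (SD, n = 7) and 1869 ± 404 CPM in Igf2enh-/- striatum (SD, n = 8), a log2 fold change of 0.15 (standard error 0.192). Without library 20 the wild-type mean was 1810 ± 308 CPM and the log2 fold change 0.04 (0.148), while that of Pde7b went from 0.16 to 0.06 and that of Pde1b from -0.02 to -0.12. The signs of Pde4b and Pde9a turned, to -0.02 for each. No member was called without library 20 either, with 0.0431% of all genes called. The standard error of Pde1a, 0.328, was the widest, and a change of that size in Pde1a was not detectable with these libraries.

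**Figure D5:**
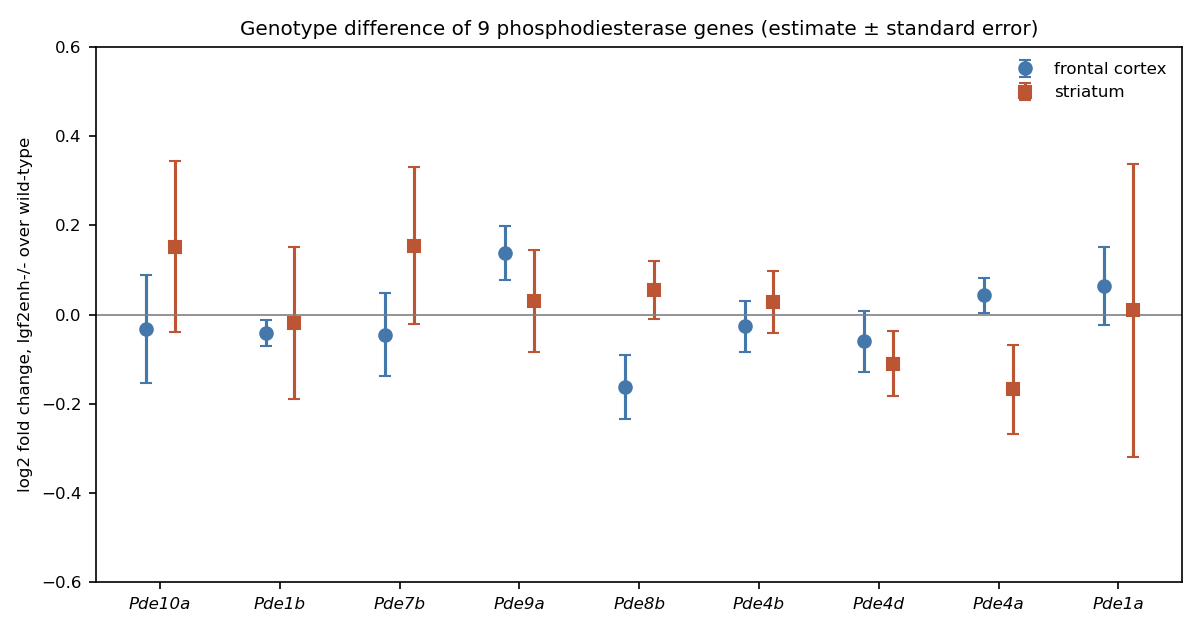
Log2 fold change of Igf2enh-/- over wild-type mice for 9 phosphodiesterase genes in frontal cortex (6 and 6 libraries) and striatum (8 Igf2enh-/- and 7 wild-type libraries), with bars of ± 1 standard error. All values lie between -0.17 and 0.16, and none passed the test.

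Whether the region difference itself depended on genotype was tested with an interaction term over all 27 libraries. It called 0 of 9 members and 0.0% of 13414 genes in edgeR's quasi-likelihood test, with 405 genes, among them 1 member, at an unadjusted p under 0.05. The likelihood ratio test, DESeq2 and limma-voom also called 0 genes. The member was Pde8b, whose region difference was larger by 0.21 on the log2 scale in Igf2enh-/- mice (standard error 0.103, adjusted p = 1). The interaction estimates of the others lay between -0.22 for Pde4a and 0.20 for Pde7b.

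Males and females did not differ past the threshold for any member. The sex term, males over females, called 0 of 9 members in frontal cortex, where it called 0.0431% of genes, and 0 of 9 in striatum, where it called 0.0432%, and no member had an unadjusted p under 0.05 in either region. The estimate furthest from 0 was that of striatal Pde1b, -0.34 with a standard error of 0.17 (edgeR's adjusted p = 0.473), which was -0.26 without library 20. In striatum the estimates of all 18 medium spiny neuron genes were below 0, with 0 called, and their part in the estimate of Pde1b was not tested.

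Other genes of the pathway were counted by list in the region comparison, beside the shares of all genes called higher (33.8% in wild-type and 34.0% in Igf2enh-/- mice) and lower (31.6% and 34.1%). A list gene was counted if it was called in both genotypes in the same direction. The shares of all genes are those of each genotype alone, and the share called in both is not given here. Of 9 adenylyl cyclases tested, which make cAMP, 2 were higher and 6 lower in striatum in both genotypes. Adcy5, the main cyclase of medium spiny neurons, had 145 CPM in wild-type frontal cortex and 1677 CPM in wild-type striatum on average, a log2 fold change of 3.53, and Adcy3 had a log2 fold change of 0.54. The lower ones with the largest changes were Adcy2 (-1.71), Adcy8 (-1.47) and Adcy1 (-1.21), the last a calmodulin-stimulated cyclase that went from 931 to 411 CPM. The median over the 9 cyclases was -0.96 in wild-type mice, where that over all genes was 0.02.

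Of the 14 other phosphodiesterase genes 8 could be tested in the region comparisons, and 4 were higher and 1 lower in both genotypes. Nothing is read from these counts. In wild-type mice Pde1c, the remaining calmodulin-stimulated gene, rose from 5.20 to 33.7 CPM (log2 fold change 2.70), Pde3a by 1.73 and Pde8a by 1.19. Pde5a, a cGMP-specific enzyme, fell by 1.14. The 3 Pde1 genes therefore had log2 fold changes of 3.35 for Pde1b, 2.70 for Pde1c and -1.49 for Pde1a.

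Among cAMP effectors 28 were tested, and 9 were higher and 9 lower in striatum in both genotypes. The largest increases in wild-type mice were those of Ppp1r1b, which encodes the protein phosphatase inhibitor DARPP-32 (log2 fold change 4.71), Arpp21 (1.70) and the anchoring protein gene Akap9 (1.51). Ppp1r1b went from 68.3 to 1784 CPM, and it and Adcy5 are also in the medium spiny neuron list. Among the largest decreases were those of Prkar1b, a regulatory subunit of protein kinase A (-1.41), and Pkib, an inhibitor of protein kinase A (-1.16). Of 9 guanylyl cyclases and cGMP effectors tested, 5 were higher and 2 lower in both genotypes, and with lists of this size nothing is read from these counts. Nos1, the neuronal nitric oxide synthase, had a log2 fold change of 0.73, and the soluble guanylyl cyclase subunits Gucy1a1 and Gucy1a2 of 0.60 and 0.54. The cGMP-dependent kinases Prkg2 and Prkg1 had -0.88 and -0.54. None of the genes of these 4 lists passed the test of genotype in either region or of the interaction.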

How the data were processed

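RNA from frontal cortex (12 libraries) and striatum (15 libraries) was sequenced as single-end reads. Trim Galore 0.5.0 was used by the authors to trim the reads and STAR to align them to GRCm38 (GENCODE vM15), and the authors deposited raw counts per gene. The strand setting was not given in the sources used here. The count tables held 0 columns without a sample. Groups came from the labels, where each library has its own number. The series' own summary of its design states 14 wild-type and 13 Igf2enh-/- where the labels of the libraries show 13 and 14, and the labels were followed. The p-values of the group comparisons set a difference against the spread between these libraries, taken as independent. Those of the Wilcoxon tests concern differences between neighbouring genes within libraries.

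Identifiers were matched to symbols through GENCODE vM1 (32688 of 52636). Genes that reached 1 CPM in all libraries of a fit were tested in R 4.3.3 with edgeR 4.0.16 (TMM, quasi-likelihood F-test, sex as a term, Benjamini-Hochberg adjustment). The standard errors of these fits are the absolute log2 fold change divided by the square root of the F statistic. Alternatives were the likelihood ratio test, which the study's methods name, limma-voom (limma 3.58.1), DESeq2 1.42.0, its size factors alone, scaling by totals, filterByExpr, no filter, no sex term and leaving out each library. The models were tested on simulated data in which 200 genes were changed by 0.5 on the log2 scale. Of these, 88.5% were called for genotype in frontal cortex, 76% for genotype in striatum and 74% for the interaction. For the region difference 82% were called in wild-type and 84.5% in Igf2enh-/- mice. Changes as small as the members' genotype estimates were not simulated. Lengths per kb are of vM1 exons and coordinates of genes and promoters are RefSeq's in GRCm38.p6. Likeness used log2(CPM + 0.5). Python 3.11.15 with matplotlib 3.10.9 drew the figures.

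All 10 genes were looked up for every comparison and 9 could be tested, all but Pde2a. Genes of the other pathway lists were named if called by genotype or interaction, and for the region comparison up to 3 per list and direction with the largest wild-type change among those called in both genotypes. The members and all lists, of cyclases, effectors, other phosphodiesterases and cell type markers, were chosen with earlier results of these data known. Protein sequences were not used here. Some genes that these rules name are not reported here.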

Additional observations from a re-analysis of the deposited data

Results flagged for a closer look

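Each of the 9 measured genes was examined in each group (36 tests on the log2 scale with 0.5 CPM added) for a library whose gap to its neighbour is large for the group's range, a rule that chance meets in about 1 of 20 groups. The level of Pde10a in library 20 of wild-type striatum, 767 CPM where the other 6 libraries had 1440 to 2257 CPM, had a gap of 0.584 of the range (critical value 0.568). The level of Pde4d in library 3 of Igf2enh-/- frontal cortex, 58.3 CPM where the others had 48.2 to 50.7 CPM, had a gap of 0.734 of the range (critical value 0.625).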

How the results depend on the processing

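The 9 region calls of the members held in both genotypes under every alternative run, and no member was called for genotype, sex or interaction under any of them. Adjusted p-values over the alternatives ran from 6.14e-128 to 0.00624 for the wild-type region differences, from 0.105 to 1 for genotype in the regions and from 0.993 to 1 for the interaction, with the test named by each alternative (edgeR, DESeq2 or limma). The counts over all genes moved more. For genotype in frontal cortex (53 genes) the likelihood ratio test called 232, DESeq2 242 and no filter 459, and in striatum (5 genes) they called 56, 112 and 10, limma-voom 3, filterByExpr 13 and the fit without sex 3. For sex in frontal cortex and striatum (6 genes each) the likelihood ratio test called 28 and 12, DESeq2 21 and 16, filterByExpr 13 and 12, and no filter 185 and 14. Leaving out 1 library gave 8 to 96 genes for genotype in frontal cortex, with over 1.5-fold shifts without library 1 (96), 4 (10), 6 (11), 7 (84), 8 (15), 9 (10), 10 (8), 11 (32) or 12 (17), and 3 to 8 in striatum (3 without library 18, 19, 21, 24, 25 or 27, 8 without 23). The causes were not tested.

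Signs turned for 15 of 63 member estimates, none of them called. With limma-voom the interaction of Pde1a was 0.12 and the genotype estimate of Pde1b in striatum 0.021, the latter also 0.0094 without sex, and total count scaling gave -0.00082 for the sex estimate of Pde8b in frontal cortex. With 1 library left out, genotype estimates in frontal cortex ran from -0.15 to 0.050 for Pde10a, -0.052 to 0.027 for Pde4b and -0.11 to 0.035 for Pde7b. In striatum they ran from -0.17 to 0.21 for Pde1a, -0.12 to 0.073 for Pde1b, -0.015 to 0.076 for Pde4b and -0.023 to 0.13 for Pde9a. The interaction ran from -0.24 to 0.12 for Pde1a and -0.073 to 0.11 for Pde1b. Sex estimates in frontal cortex ran from -0.039 to 0.075 for Pde1a, -0.019 to 0.0052 for Pde1b, -0.046 to 0.046 for Pde8b and -0.019 to 0.043 for Pde9a, and in striatum from -0.0038 to 0.080 for Pde4d and -0.056 to 0.080 for Pde9a. Depth limits Pde9a most among the tested members, with 279 to 1059 counts per wild-type library. No paired analysis was possible because the library numbers are unique to each library and tie no libraries together.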
